A study of Rattus norvegicus with 8 samples.

Results

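Expression of 10 genes that the transcription factor p53 is known to switch on, Mdm2, Ccng1, Bax, Fas, Gdf15, Perp, Tp53inp1, Phlda3, Zmat3 and Sesn1, was followed in the rat thyroid after X-irradiation. They were chosen by name as established p53 targets other than Cdkn1a. The rule picks genes by none of the measurements below, but it was made with earlier results of these data known. All 10 of the 10 names were found among the 30560 genes of the deposited table. Each gene was represented by its transcript with the highest raw count summed over the samples, because the transcripts of a gene share reads in these counts, and 5 of the 10 have several transcripts. RNA-Seq was performed on thyroid RNA of 8 male Wistar rats, 2 in each of 4 groups. The 1w4Gy rats received 4 Gy of X-rays to the neck at 1 week of age and the 4m4Gy rats the same dose at 4 months of age, with lead plates covering the rest of the body. The 1w0Gy and 4m0Gy rats were sham-irradiated at these ages, and the thyroids were removed about 8 weeks afterwards. No group carried a transgene or a deletion, and the animals irradiated at each age were also of different age at necropsy.

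p53 is held at a low level in resting cells by the ubiquitin ligase Mdm2, which is itself a p53 target and closes a feedback loop. DNA breaks made by ionizing radiation activate the kinases Atm, Chek2 and Prkdc, p53 is released from Mdm2, and it binds paired decamer sites near genes that halt the cell cycle, repair DNA, limit oxidative stress or promote apoptosis. Cdkn1a, which encodes the cyclin-dependent kinase inhibitor p21, is the classical target for cell cycle arrest and was used as the reference for the 10 genes. Thyrocytes divide slowly in the adult gland, and the thyroid of the young is known as a radiosensitive organ.

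Gene counts per sample ranged from 14835400 to 18138102 with a median of 16180960.5, and thyroglobulin, the thyrocyte product, took 18.5% to 21.3% of them. The summed TPM of 10 thyrocyte markers ranged from 22070 to 26800 with all 10 detected. Taken over many genes together, both rats of every group differed beyond counting noise (chi-square divided by its degrees of freedom 8.44 to 17.3). In the second 4m4Gy sample the summed TPM of 3 parathyroid markers was 386, against 2522 to 7053 in the other samples, so that this sample stood apart. Each sample came from a different rat. The p-values rest on the spread between these rats alone, which the test estimates for each gene partly from the other genes. Expression is given as CPM, library-size-scaled counts after TMM normalization, and, where genes are compared with each other, as deposited TPM, which is per length. The test was edgeR's quasi-likelihood test, its p-values were adjusted by Benjamini-Hochberg over all genes tested, and genes under 0.05 were called.

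By this test no gene of the whole table was called at either age alone, so neither the 10 genes nor Cdkn1a. In the test over both ages Cdkn1a was the one gene called. Ccng1 was the one of the 10 with all 4 irradiated samples above all 4 sham-irradiated samples, as was the case for Cdkn1a. Fas had the largest log2 fold change among the 10 after irradiation at 1 week and over both ages. Tp53inp1 and Zmat3 were above sham in both irradiated samples at 1 week and below it in both at 4 months. Mdm2, Perp and Sesn1 also had opposite signs at the 2 ages, but their groups overlapped at 1 week. For Mdm2, Bax, Phlda3, Sesn1 and Gdf15 the 95% interval of the difference included 0 at both ages. In whole tissue, a change in the number of cells that carry an mRNA and a change in the amount per cell cannot be told apart.

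**Figure D1:**
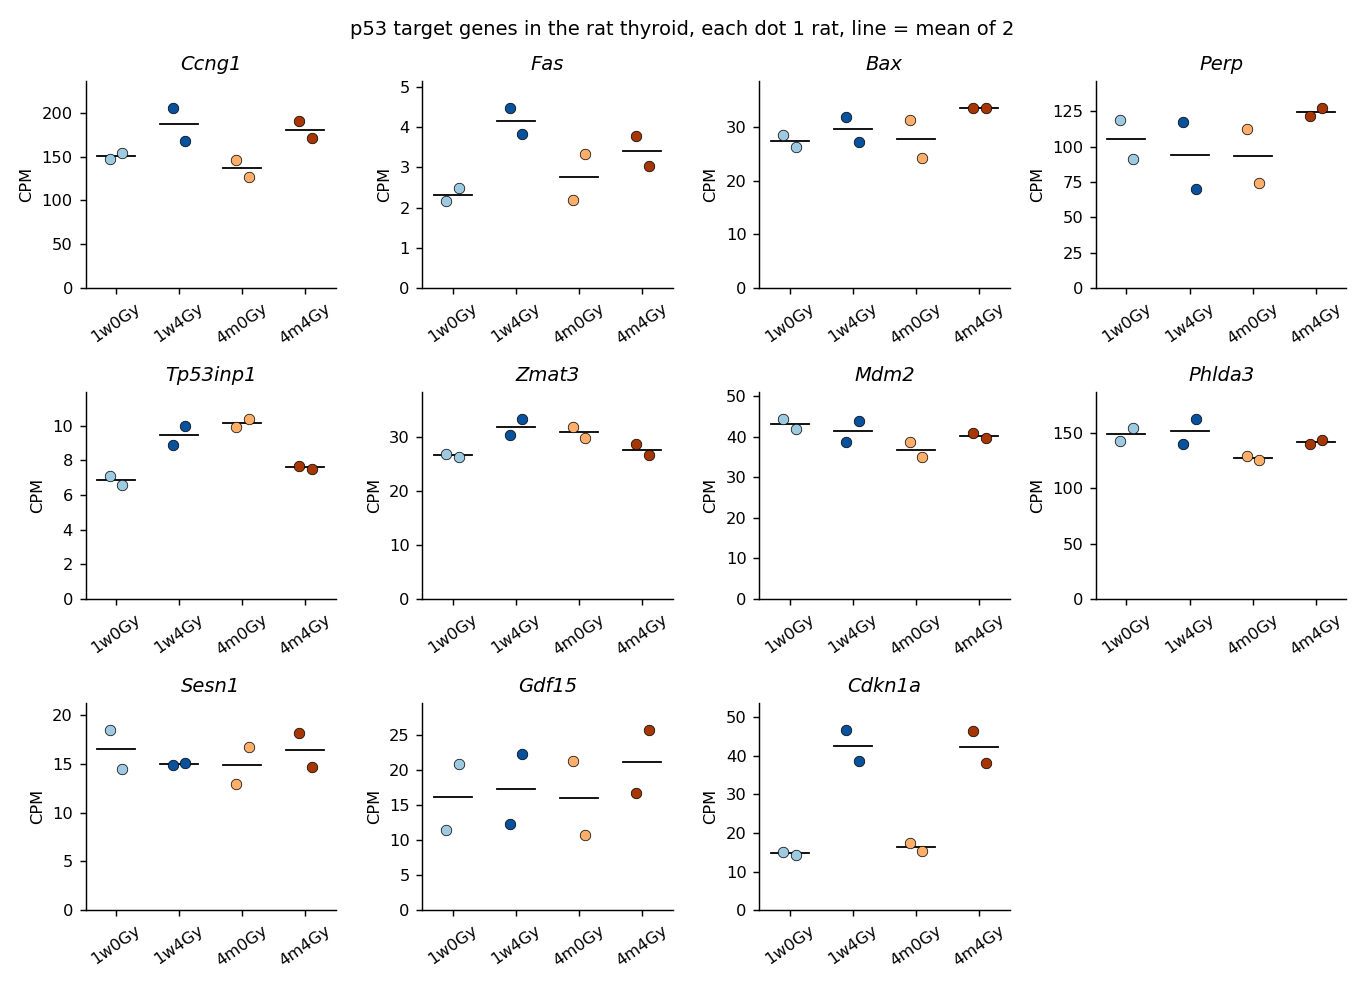
CPM of the 10 p53 target genes and Cdkn1a in each of the 8 thyroid samples (each dot 1 rat, line the mean of 2, vertical axes from 0, groups on the horizontal axis). Ccng1 and Cdkn1a have all irradiated dots above all sham-irradiated dots, while Tp53inp1 and Zmat3 are higher in 1w4Gy than in 1w0Gy and lower in 4m4Gy than in 4m0Gy.

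Cdkn1a set the scale for the other genes. Cdkn1a was at 15.1 and 14.4 CPM in 1w0Gy against 46.6 and 38.5 in 1w4Gy, and at 17.4 and 15.4 in 4m0Gy against 46.4 and 38.1 in 4m4Gy. It rose 2.73-fold over both ages, a log2 fold change of 1.45 ± 0.10 (SE, 4 irradiated and 4 sham-irradiated samples, adjusted p = 0.000518 by edgeR's quasi-likelihood test). At each age alone its difference was 1.53 ± 0.12 at 1 week and 1.36 ± 0.13 at 4 months on the log2 scale, with edgeR adjusted p of 0.0813 and 0.104, which missed the threshold. It was called at both ages with edgeR's robust estimate of the spread, at an adjusted p of 0.0334 and 0.0150, and by the DESeq2 Wald test, at 1.92e-12 and 8.31e-10.

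Per length, Phlda3, Perp and Ccng1 were the most abundant of the 10 and Fas the least. Mean TPM was 75.5 to 89.3 over the 4 groups for Phlda3, 46.8 to 60.02 for Perp and 42.8 to 58.3 for Ccng1. Bax, Gdf15 and Mdm2 followed at 12.8 to 15.2, 13.03 to 16.6 and 11.8 to 13.7 TPM, ranges that overlap each other. Tp53inp1 was at 6.49 to 9.73 TPM, Sesn1 at 4.06 to 4.44, Zmat3 at 3.82 to 4.62 and Fas at 0.848 to 1.53. On the same scale Cdkn1a was at 8.07 and 9.09 TPM in the sham-irradiated groups and at 23.5 and 22.5 TPM in the irradiated groups, so that after irradiation it stood above Bax, Gdf15 and Mdm2.

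Ccng1 (ENSRNOG00000003256) encodes cyclin G1, which brings the phosphatase PP2A to Mdm2. It was at 147 and 154 CPM in 1w0Gy and at 206 and 169 CPM in 1w4Gy. At 4 months the values were 147 and 127 CPM in 4m0Gy and 191 and 171 CPM in 4m4Gy. The lowest irradiated sample of either age, at 169 CPM, lay above the highest sham-irradiated sample, at 154 CPM. Ccng1 was 1.24-fold higher after irradiation at 1 week, a log2 fold change of 0.31 ± 0.11 (SE, n = 2 and 2, 95% interval 0.05 to 0.58), and 1.32-fold higher after irradiation at 4 months, 0.40 ± 0.10 (95% interval 0.17 to 0.63). Neither passed after adjustment, with an edgeR adjusted p of 0.864 at 1 week and 0.507 at 4 months. Over both ages the log2 fold change was 0.36 ± 0.08 (95% interval 0.18 to 0.53, edgeR adjusted p = 0.932), above that of 96.1% of genes, and the DESeq2 Wald test called it at an adjusted p of 0.0490. Over the alternatives that kept all samples, its adjusted p ranged from 0.0490 to 1.00. Without the second 4m4Gy sample, the one low in parathyroid RNA, the log2 fold change of Ccng1 was 0.47 at 4 months and 0.38 over both ages. Without the first 1w4Gy sample the difference at 1 week was 0.16, and without the second it was 0.45, so that its size at 1 week rests on which irradiated rat is kept.

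Promoter windows of GRCr8 from RefSeq, 250 bases before to 50 bases after each gene's start, were searched for the 10-base p53 half-site motif, which is its own reverse complement and so is found on both strands in 1 pass. A window was held for 7 of the 10 genes, and for Cdkn1a. Bax, Tp53inp1 and Zmat3 had none. Among the 7, Ccng1 and Sesn1 had a half-site, against 8.57% of the 27457 genes with a window, and Cdkn1a had one also. No window of the 7 genes or of Cdkn1a held paired half-sites with up to 13 bases between them, which 0.0619% of genes had. Beside the half-sites of Ccng1 and Cdkn1a lay a second decamer with 1 mismatch to the motif, an arrangement that 0.076% of genes share, or 21 genes. This criterion was added after the sequences were read. The 100 bases that hold each half-site are shown because Ccng1 and Cdkn1a were, of the 10 genes and Cdkn1a, those with all irradiated samples above all sham-irradiated ones, and Sesn1 because it has a half-site without such a neighbour, its best adjacent decamer having 3 mismatches. Capitals mark the half-site and each sequence is written 5′ to 3′ along the gene's strand. The Ccng1 stretch is chr10:25685027-25685126 on the minus strand with the half-site starting 232 bases before the gene's start, the Cdkn1a stretch chr20:7150682-7150781 on the plus strand with the half-site 201 bases before the start, and the Sesn1 stretch chr20:46948469-46948568 on the plus strand with the half-site 172 bases before the start.
Ccng1: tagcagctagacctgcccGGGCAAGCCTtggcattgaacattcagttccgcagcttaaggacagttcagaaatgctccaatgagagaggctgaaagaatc
Cdkn1a: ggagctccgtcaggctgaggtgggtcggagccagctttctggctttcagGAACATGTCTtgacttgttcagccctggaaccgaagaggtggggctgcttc
Sesn1: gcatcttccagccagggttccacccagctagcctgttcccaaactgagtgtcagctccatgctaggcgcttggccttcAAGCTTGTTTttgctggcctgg
These are matches of letters, not measured binding, and for Mdm2, Fas, Perp, Phlda3 and Gdf15 it is known only that the letters are not in this window.

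Mdm2 (ENSRNOG00000006304), the ubiquitin ligase of the feedback loop, did not follow Ccng1. It was at 44.3 and 41.8 CPM in 1w0Gy against 38.6 and 43.9 in 1w4Gy, and at 38.6 and 35.02 in 4m0Gy against 40.9 and 39.6 in 4m4Gy. The groups overlapped at 1 week, and at 4 months both irradiated samples lay just above both sham-irradiated ones. The log2 fold changes were -0.06 (95% interval -0.30 to 0.17) at 1 week and 0.13 (95% interval -0.07 to 0.33) at 4 months. Over both ages the interval of -0.12 to 0.19 on the log2 scale did not include a change of the size seen for Ccng1.

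The cell death genes Bax, Fas and Perp differed from one another. Bax (ENSRNOG00000020876) encodes a pore-forming protein of the outer mitochondrial membrane, Fas (ENSRNOG00000019142) a death receptor of the cell surface, and Perp (ENSRNOG00000011994) a membrane protein of desmosomes that was also described as an apoptosis effector. Fas was at 2.16 and 2.49 CPM in 1w0Gy and at 4.48 and 3.83 CPM in 1w4Gy, which are 40, 43, 72 and 62 raw counts. At 4 months it was at 2.197 and 3.34 CPM in 4m0Gy and at 3.78 and 3.04 CPM in 4m4Gy, and these groups overlapped. The log2 fold change of Fas was 0.84 ± 0.25 at 1 week (SE, n = 2 and 2, 95% interval 0.26 to 1.42, edgeR adjusted p = 0.864), which is 1.79-fold and above the value of 98.9% of genes. At 4 months it was 0.29 ± 0.31 (edgeR adjusted p = 0.839), and DESeq2's own filter on low counts left Fas without an adjusted p in both comparisons. Leaving out 1 sample gave 0.72 to 0.94 at 1 week. At 4 months it gave 0.024 without the first and 0.62 without the second 4m0Gy sample. On the log2 scale of TPM plus 1, which understates the change of low genes, the 1-week value was 0.45. The difference between ages was -0.54 for Fas, with a 95% interval of -1.41 to 0.33 that included 0, and -0.81 to -0.21 with 1 sample left out. As Fas is also carried by lymphocytes, the summed TPM of 8 lymphocyte markers is given beside it: 2.52 and 3.19 in the lower and higher 1w0Gy sample and 2.98 and 4.61 in 1w4Gy, which overlapped, and 1.87 and 2.44 in 4m0Gy against 2.71 and 3.08 in 4m4Gy, which did not, with 6 of the 8 markers under 1 TPM in every sample. The part of lymphocytes in the Fas difference was not tested.

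Bax was at 28.5 and 26.3 CPM in 1w0Gy, 31.8 and 27.3 in 1w4Gy, 31.2 and 24.3 in 4m0Gy, while both 4m4Gy samples were at 33.5. It was higher in both 4m4Gy samples than in both 4m0Gy samples, by 0.27 ± 0.13 on the log2 scale (SE, n = 2 and 2, 95% interval -0.03 to 0.57), and the groups overlapped at 1 week. Without the first or the second 4m0Gy sample the difference at 4 months was 0.46 or 0.09. The sham-irradiated rats of that age lay farther apart than the means of the groups.

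Perp was at 119 and 91.5 CPM in 1w0Gy against 118 and 69.8 in 1w4Gy, and at 112 and 74.0 in 4m0Gy against 122 and 127 in 4m4Gy. The second sample was the lower one in 3 of the 4 groups. The log2 fold change was -0.17 at 1 week (95% interval -0.73 to 0.39) and 0.42 at 4 months (95% interval 0.01 to 0.83, edgeR adjusted p = 0.615). Without the first 4m0Gy sample Perp was called at 4 months at 0.75 on the log2 scale (edgeR adjusted p = 0.0171), and without the second the difference was 0.14, so that 1 sham-irradiated rat decides this call. Perp is abundant in stratified epithelium. The summed TPM of 7 detected markers of stratified or airway epithelium, of 8 listed, was 8.88 to 9.63 in 1w0Gy, 9.48 to 18.7 in 1w4Gy, 2.01 to 4.14 in 4m0Gy and 5.32 to 6.71 in 4m4Gy, and their part in the Perp values was not tested.

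Phlda3 (ENSRNOG00000009068), an inhibitor of the kinase Akt, was per length the most abundant of the 10, and it was among the most even. It was at 142 and 155 CPM in 1w0Gy against 140 and 162 in 1w4Gy, and at 129 and 126 in 4m0Gy against 140 and 143 in 4m4Gy. The log2 fold change was 0.03 at 1 week (95% interval -0.22 to 0.27) and 0.15 ± 0.07 at 4 months (SE, n = 2 and 2, 95% interval -0.01 to 0.31), where the groups did not overlap. Both 4m4Gy samples also lay within the range of the 1-week samples.

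Tp53inp1 and Zmat3 separated irradiated from sham-irradiated samples at both ages, in opposite directions. Tp53inp1 (ENSRNOG00000007964) encodes a stress-induced nuclear protein that promotes p53-dependent death and autophagy, and Zmat3 (ENSRNOG00000063864) a zinc finger protein that binds RNA and regulates splicing. Tp53inp1 was at 7.12 and 6.60 CPM in 1w0Gy and at 8.89 and 10.01 CPM in 1w4Gy. At 4 months it was at 9.95 and 10.4 CPM in 4m0Gy and at 7.70 and 7.51 CPM in 4m4Gy. Groups of the same age did not overlap, and the order was reversed, with 1w4Gy and 4m0Gy high and 1w0Gy and 4m4Gy low. The log2 fold changes were 0.46 ± 0.17 at 1 week (SE, n = 2 and 2, 95% interval 0.06 to 0.86, edgeR adjusted p = 0.864) and -0.42 ± 0.16 at 4 months (95% interval -0.79 to -0.05, edgeR adjusted p = 0.589). The test of the difference between ages gave -0.88 ± 0.21 (95% interval -1.35 to -0.41), which did not pass after adjustment (edgeR adjusted p = 0.440). With each sample left out in turn it stayed between -0.96 and -0.79. The longer of the 2 Tp53inp1 transcripts, of 2283 bases, had raw counts of 89 and 76 in 1w0Gy against 91 and 111 in 1w4Gy, and of 86 and 118 in 4m0Gy against 89 and 66 in 4m4Gy, so that in raw counts 1 of the 4m4Gy samples lay within the range of 4m0Gy.

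Zmat3 repeated this order on a smaller scale. It was at 26.9 and 26.4 CPM in 1w0Gy against 30.4 and 33.4 in 1w4Gy, and at 31.9 and 29.9 in 4m0Gy against 28.8 and 26.7 in 4m4Gy. The log2 fold changes were 0.26 ± 0.10 at 1 week (SE, n = 2 and 2, 95% interval 0.02 to 0.50, edgeR adjusted p = 0.864) and -0.16 ± 0.09 at 4 months (95% interval -0.38 to 0.06). The difference between ages was -0.42 ± 0.13 (95% interval -0.71 to -0.12, edgeR adjusted p = 0.446). Both 1w4Gy samples above sham and both 4m4Gy samples below it were found for 2 of the 10, against 4.96% of 15040 genes tested at both ages. All irradiated samples above sham at each age were found for 1 of the 10, Ccng1, against 2.93%.

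**Figure D2:**
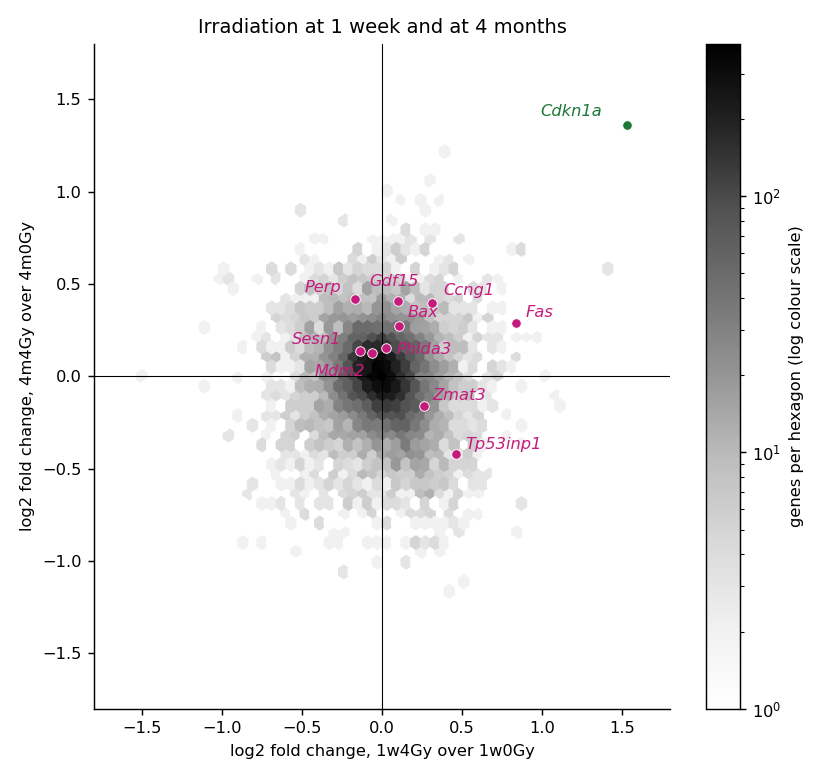
Log2 fold change after irradiation at 4 months (4m4Gy over 4m0Gy, vertical) against that at 1 week (1w4Gy over 1w0Gy, horizontal) for all genes tested at both ages (hexagons, darker for more genes on a log colour scale), the 10 p53 target genes (pink) and Cdkn1a (green). Cdkn1a lies alone at 1.53 and 1.36, Fas and Ccng1 lie to its lower left, and Zmat3 and Tp53inp1 lie in the quadrant that is positive at 1 week and negative at 4 months.

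Sesn1 (ENSRNOG00000000302), which encodes a sestrin that restrains mTORC1 and oxidative stress, did not separate the groups. It was at 18.5 and 14.5 CPM in 1w0Gy against 14.9 and 15.1 in 1w4Gy, and at 12.99 and 16.8 in 4m0Gy against 18.2 and 14.7 in 4m4Gy. The log2 fold changes were -0.14 at 1 week and 0.14 at 4 months, and over both ages the 95% interval was -0.28 to 0.28.

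Gdf15 (ENSRNOG00000019661), a secreted stress cytokine of the TGF-beta superfamily, varied most among the 10, with a coefficient of variation of 32.1% over the 8 samples. It was at 11.5 and 20.8 CPM in 1w0Gy against 12.2 and 22.3 in 1w4Gy, and at 21.3 and 10.7 in 4m0Gy against 16.7 and 25.6 in 4m4Gy. The rats of each group lay far apart, and irradiated and sham-irradiated samples overlapped at both ages. The log2 fold changes of 0.10 at 1 week (95% interval -0.71 to 0.91) and 0.41 at 4 months (95% interval -0.35 to 1.17) leave room for changes in either direction at this number of rats.

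Counted over the 10 genes, those that stood apart at 1 week were all higher in the irradiated samples. After irradiation at 1 week 0 of 10 were called, as were 0% of 15359 genes by edgeR's quasi-likelihood test, with 882 genes at an unadjusted p under 0.05 and 22 called by DESeq2. At an unadjusted p under 0.05, 4 of the 10 (Ccng1, Fas, Tp53inp1 and Zmat3) were higher and 0 lower, against 5.74% of all genes in either direction. The same 4 were higher in both irradiated samples than in both sham-irradiated ones, against 17.7% of all genes, and 0 were lower, against 17.8%. The median log2 fold change of the 10 was 0.10, against -4.7e-06 over all genes.

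After irradiation at 4 months 0 of 10 were called, as were 0% of 15253 genes, with 1227 genes at an unadjusted edgeR p under 0.05 and 11 called by DESeq2. Unadjusted, Ccng1 and Perp were higher and Tp53inp1 lower, 3 of 10 against 8.04% of all genes. Mdm2, Ccng1, Bax, Perp and Phlda3 were above sham in both irradiated samples, 5 of 10 against 20.9% of all genes, and Tp53inp1 and Zmat3 were below, 2 of 10 against 18.7%. The median log2 fold change was 0.21, against 0.0091 over all genes. Without the second 4m4Gy sample the log2 fold changes at 4 months were 0.14 for Mdm2, 0.47 for Ccng1, 0.26 for Bax, 0.43 for Fas, 0.058 for Gdf15, 0.37 for Perp, -0.41 for Tp53inp1, 0.13 for Phlda3, -0.11 for Zmat3 and 0.27 for Sesn1, and none of the 10 genes was called. For the difference between ages, 0 of 10 were called, as were 0% of 15684 genes, with 1430 genes at an unadjusted edgeR p under 0.05 and 26 called by DESeq2, and Tp53inp1 and Zmat3 made 2 of 10 at an unadjusted p under 0.05, against 9.12%.

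Over both ages 0 of 10 were called by edgeR, against 0.00638% of 15684 genes, which is Cdkn1a alone, and 1 of 10, Ccng1, by DESeq2, against 0.0701%. At an unadjusted edgeR p under 0.05 Ccng1 and Fas made 2 of 10, against 4.04%. Fas had a log2 fold change of 0.57 ± 0.20 (SE, 4 and 4 samples, 95% interval 0.12 to 1.02, edgeR adjusted p = 0.999). All 10 fold changes were above 0, against 50.5% of all genes, with a median of 0.11 against 0.0012. Those of Sesn1, at 0.0021, and Tp53inp1, at 0.02, changed sign under other settings, and those of Mdm2, Perp and Zmat3 when 1 sample was left out. Ccng1 alone of the 10 had all 4 irradiated samples above all 4 sham-irradiated ones, against 0.988% of all genes.

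**Figure D3:**
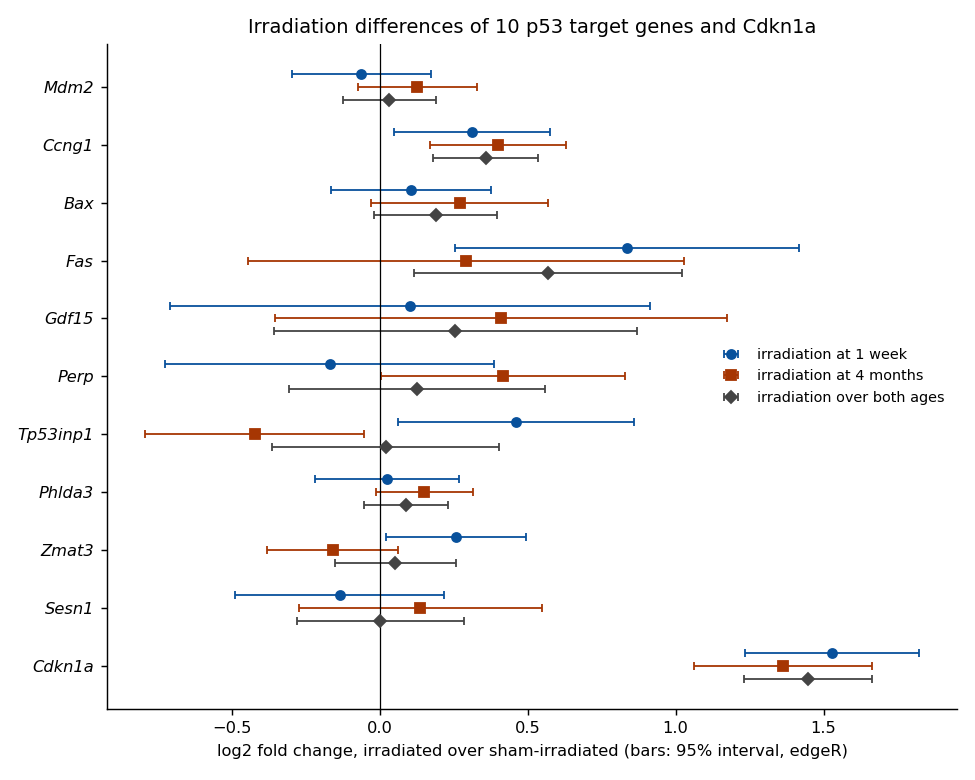
Log2 fold change of irradiated over sham-irradiated samples with its 95% interval from edgeR (horizontal) for the 10 p53 target genes and Cdkn1a, after irradiation at 1 week (blue circles, n = 2 and 2), at 4 months (red squares, n = 2 and 2) and over both ages (grey diamonds, n = 4 and 4). Cdkn1a stands at 1.36 to 1.53 while the 10 genes reach at most 0.84, and Ccng1 is the one of the 10 whose 3 intervals all lie above 0.

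Averaged over sham-irradiated and irradiated rats, none of the 10 genes was called between the 4-month and the 1-week groups, while 4.25% of all genes were, and 1 of 10, Phlda3, had an unadjusted p under 0.05, against 20.6% of all genes. Phlda3 was at -0.16 ± 0.06 on the log2 scale (SE, 4 and 4 samples, edgeR adjusted p = 0.198), and the 10 log2 differences ranged from -0.16 to 0.14. For Tp53inp1 and Zmat3 this average joins opposite differences, since both 4-month samples lay above both 1-week samples among sham-irradiated rats and below them among irradiated rats.

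The rest of the p53 pathway was read from a list of 48 further targets, Cdkn1a included, of which 46 rows for 45 names were tested. After irradiation at 1 week 28 were above 0 and 18 below with a median of 0.06, and 3 were higher at an unadjusted edgeR p under 0.05 and 0 lower, where 7679 of 15359 genes were above 0 and 514 were higher. After irradiation at 4 months 30 were above 0 and 16 below with a median of 0.05, and 7 were higher and 1 lower at that level, where of 15253 genes 7917 were above 0 and 7336 below, with 499 higher and 728 lower. Over both ages 3 of the 46, Cdkn1a, Dram1 and Aen, had all irradiated samples above all sham-irradiated ones, against 0.988% of all genes. Dram1, a lysosomal membrane protein of autophagy, was at 0.32 ± 0.08 and Aen, a nuclease active in apoptosis, at 0.29 ± 0.09 on the log2 scale (SE, 4 and 4 samples, edgeR adjusted p = 0.999 for both), and both were named after their values were seen.

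Among the further targets with the largest differences, Cdkn1a led at both ages. Ephx1, the microsomal epoxide hydrolase of xenobiotic metabolism, was next at 4 months with 0.71 ± 0.07 on the log2 scale (SE, n = 2 and 2, edgeR adjusted p = 0.104, and 0.0182 with the robust estimate), and at 0.70 without the second 4m4Gy sample. Bbc3, which encodes the apoptosis activator Puma, was at 0.39 ± 0.11 at 4 months (edgeR adjusted p = 0.539). At 1 week Psrc1 and Ckap2, both proteins of the mitotic spindle, were at -0.96 ± 0.44 and 0.62 ± 0.35 (edgeR adjusted p = 0.864 and 0.876). Their levels were low, at 0.494 to 1.56 CPM for Psrc1 and 1.03 to 3.36 CPM for Ckap2 over the 8 samples. Over both ages Psrc1 was at -0.64 ± 0.31 and Ephx1 at 0.51 ± 0.14 (edgeR adjusted p = 0.999 for both). Btg2, an antiproliferative gene, had a difference between ages of -0.47 ± 0.18 (edgeR adjusted p = 0.515). Steap3, a metalloreductase, was the one further target called with age, lower by 0.70 ± 0.12 in the 4-month than in the 1-week groups (4 and 4 samples, edgeR adjusted p = 0.0128). E2f7, a repressor of cell cycle genes, was at -0.65 ± 0.29 and Ckap2 at -0.49 ± 0.27 with age (edgeR adjusted p = 0.238 and 0.357), and the differences between ages of Psrc1 and Ckap2 were 0.66 ± 0.61 and -0.41 ± 0.56. E2f7 was also low, at 0.388 to 1.31 CPM.

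**Figure D4:**
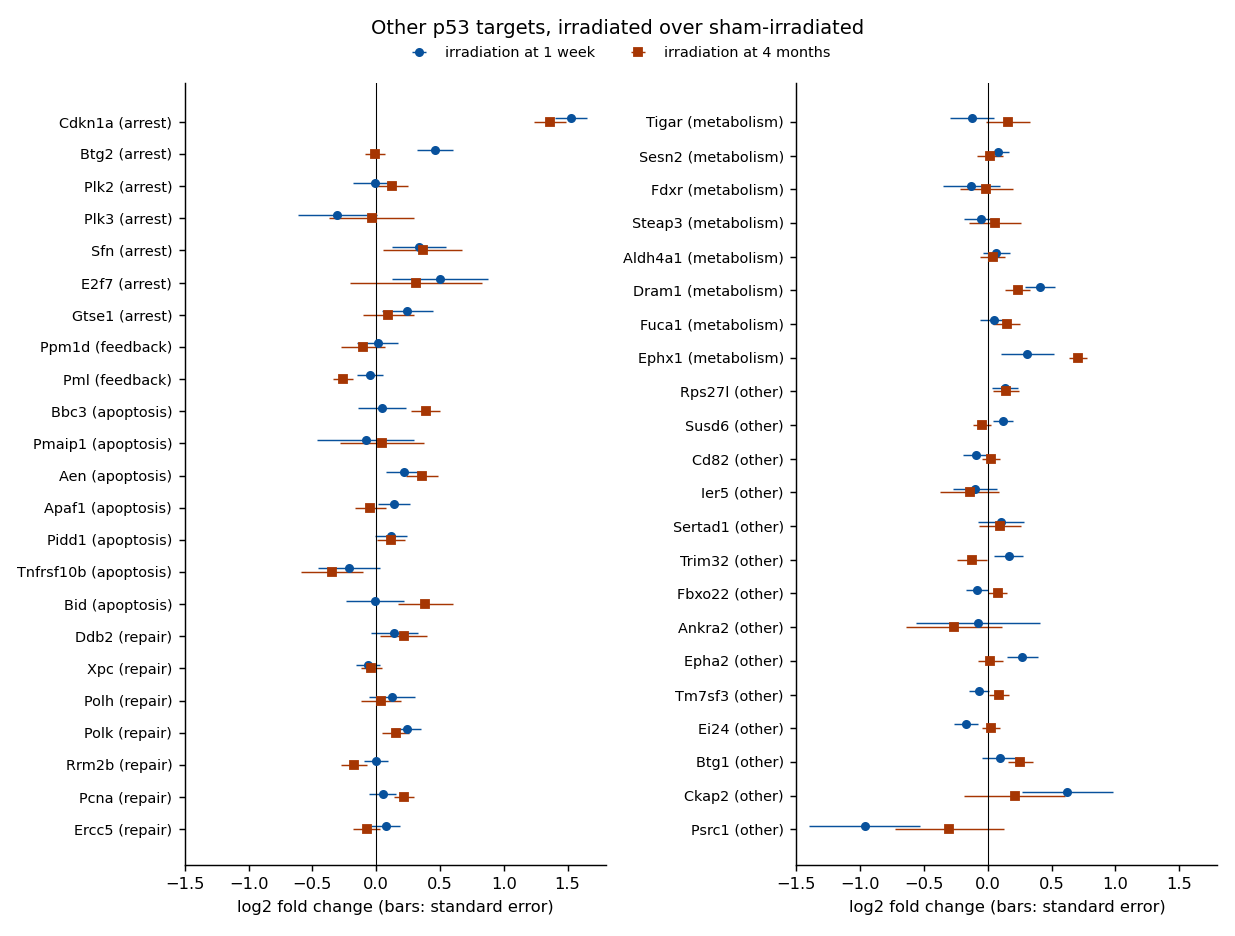
Log2 fold change with its standard error (horizontal) of 45 further p53 targets, ordered by role, after irradiation at 1 week (blue circles) and at 4 months (red squares), n = 2 and 2 each. Cdkn1a stands apart at both ages, Ephx1 reaches 0.71 at 4 months, and most other genes lie within 0.5 of 0.

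The regulators of p53 were of mixed sign after irradiation at 1 week and mostly negative at 4 months. Of 13 listed, 11 rows for 10 names were tested, Ep300 standing on 2 identifiers. At 1 week 7 of 11 were above 0, where 7679 of 15359 genes were, led by Mdm4, the partner of Mdm2 that blocks p53, at 0.46 ± 0.19 on the log2 scale (SE, n = 2 and 2, edgeR adjusted p = 0.864), followed by Prkdc, a DNA break kinase, at 0.32 ± 0.12 and Ep300 (ENSRNOG00000000190) at 0.28 ± 0.25. At 4 months 8 of 11 were below 0, and 4 at an unadjusted edgeR p under 0.05, where of 15253 genes 7336 were below 0 and 728 at that level. They were led by Ep300 (ENSRNOG00000000190), a histone acetyltransferase and p53 coactivator, at -0.87 ± 0.23 and Mdm4 at -0.63 ± 0.18 (edgeR adjusted p = 0.539 for both), which were -0.82 and -0.74 without the second 4m4Gy sample. The other Ep300 identifier, ENSRNOG00000065659, was at -0.16 ± 0.07 at 4 months and at -0.33 ± 0.13 for the difference between ages. Chek1, a checkpoint kinase, was at 0.40 ± 0.21 at 4 months. For the difference between ages 6 of 11 were negative at an unadjusted edgeR p under 0.05, where over all genes 888 were negative and 542 positive. Among them Ep300 (ENSRNOG00000000190) was at -1.15 ± 0.33, Mdm4 at -1.08 ± 0.28 and Atm, the DNA break kinase, at -0.59 ± 0.21 (edgeR adjusted p = 0.446, 0.440 and 0.482), or -1.09, -1.19 and -0.57 without the second 4m4Gy sample, the sign that Tp53inp1 and Zmat3 also had. Over both ages Ep300 (ENSRNOG00000000190) was at -0.28 ± 0.24, Atr at -0.17 ± 0.09 and Tp53bp1 at -0.16 ± 0.08, and with age Chek1 was at -0.24 ± 0.14, Mdm4 at -0.13 ± 0.22 and Chek2 at -0.10 ± 0.17, none of them called.

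Markers of other cell types differed with irradiation in some groups. At 4 months the summed TPM of 5 C cell markers was 6791 to 8439 in 4m0Gy and 9267 to 9288 in 4m4Gy, and that of 6 markers of proliferating cells 5.52 to 5.70 and 6.54 to 7.37. The sum of 10 thyrocyte markers was 26050 to 26800 in 4m0Gy and lower, 22070 to 25620, in 4m4Gy. The lymphocyte and the stratified or airway epithelium sums given beside Fas and Perp were higher in 4m4Gy than in 4m0Gy. At 1 week that of 5 endothelial markers was 122 to 127 in 1w0Gy and 146 to 156 in 1w4Gy, that of 6 adipocyte markers 135 to 193 and 90.0 to 98.3, and that of 3 parathyroid markers 4205 to 6238 and 2522 to 3691. None of the 12 marker lists separated irradiated from sham-irradiated samples in 1 direction at both ages. The part of these cells in the values of the 10 genes and of Cdkn1a was not tested.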

How the data were processed

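Total RNA of 8 rat thyroids was sequenced from directional MGI libraries as paired reads. Per the submitters' processing notes HISAT2 2.2.1 and featureCounts 2.0.0 were used, and the genome build and the strand setting of the counting are not given in the sources used here. For 54991 transcripts the authors deposited the raw counts of reads and, made from them, RPKM and TPM. The deposited counts were used for every test. The deposited TPM were used for levels between genes, marker lists and 1 alternative with a pseudocount of 1 on the log2 scale. The deposited RPKM were not used.

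One transcript per gene was taken, the one with the highest summed count. edgeR 4.0.16 (R 4.3.3) was run with TMM, filterByExpr and the quasi-likelihood test, with Benjamini-Hochberg adjustment over all genes tested. Each age was fitted on its own 4 samples, and the interaction, irradiation over both ages and age on all 8. DESeq2 1.42.0 and limma 3.58.1 served as alternatives, with other scalings, filters, transcript choices, the replicate number as a block and each sample left out. edgeR's robust estimate was added after seeing the data. The tests were also run on simulated counts, whose assumed changes were larger than those of the 10 genes. How often changes as small as theirs are called was not simulated. Taken over many genes together, counting error at 14835400 to 18138102 counts per sample was smaller than the spread between rats. For single genes of few counts, such as Fas with 34 to 72 raw counts, counting error and this spread were not compared. The genes and lists were chosen with earlier results of these data known. Named were the 10 genes, Cdkn1a, listed targets and regulators called or among the 3 largest changes in a comparison, and the 5 genes most alike in pattern, and 1 further gene of the rule is not reported here. Promoter sequences were from RefSeq (GRCr8).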

Additional observations from a re-analysis of the deposited data

How the results depend on the processing

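Of the values of the 10 genes in the 3 irradiation comparisons recomputed with all samples, 313 kept their sign and their side of the threshold, 6 reversed and 1 was newly called. Counts of called genes depended on the tool. The DESeq2 Wald test called 22 genes at 1 week, 11 at 4 months, 26 for the difference between ages, 11 over both ages, of which 1 was among the 10 (Ccng1), and 1046 with age. Without a filter on low counts 2 genes were called at 4 months, 2 for the difference between ages and 3 over both ages. The robust estimate of the spread called 1 gene at 1 week, 3 at 4 months and 2 over both ages, and 1 fit of all 8 samples called 1 gene at 1 week. The log2 fold change of Sesn1 over both ages turned to -0.000515 with DESeq2, -0.000652 with DESeq2's size factors, -0.000879 with upper quartile factors, -0.0103 with counts summed over transcripts and -0.0118 with limma on log2 of TPM plus 1. That of Tp53inp1 over both ages turned to -0.00513 with limma, and the age difference of Zmat3 to -0.00225 with summed transcripts and -0.0107 with limma. These are values close to 0, and the cause of the changes in call was not tested.

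The labels give replicate numbers in every group but do not say that a number pairs rats. With the number as a block 14 genes were called at 1 week and 2 at 4 months, among them Cdkn1a at both ages (edgeR adjusted p = 0.00178 and 0.00653), and 0 of the 10 in any comparison. Deviations of same-numbered samples correlated at 0.17 between 1w0Gy and 1w4Gy, 0.11 between 4m0Gy and 4m4Gy, -0.25 between 1w0Gy and 4m0Gy, 0.16 between 1w4Gy and 4m4Gy, 0.30 between 1w0Gy and 4m4Gy and 0.048 between 1w4Gy and 4m0Gy, over 11588 genes.

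Each sample was left out in turn, the lone sample of a group being assumed to vary like the others. Called genes then numbered 0 to 80 at 1 week (80 without the second 1w4Gy sample), 1 to 38 at 4 months (38 without the first 4m0Gy sample, where 0 to 1 of the 10 was called, Perp), 1 to 3 over both ages (3 without the first 4m0Gy sample, 2 without the second 1w4Gy sample) and 266 to 631 with age (266 without the second 1w0Gy sample). Log2 fold changes that reversed ranged as follows. At 1 week Mdm2 was at -0.16 to 0.031, Bax at -0.0082 to 0.21, Gdf15 at -0.40 to 0.59, Perp at -0.59 to 0.16, Phlda3 at -0.084 to 0.13 and Sesn1 at -0.30 to 0.050. At 4 months Gdf15 was at -0.014 to 0.98 and Sesn1 at -0.034 to 0.33. For the difference between ages Ccng1 was at -0.041 to 0.24, Bax at -0.0095 to 0.36, Gdf15 at -0.18 to 0.88 and Ckap2 at -0.79 to 0.11. Over both ages Mdm2 was at -0.017 to 0.089, Perp at -0.047 to 0.32, Tp53inp1 at -0.097 to 0.12, Zmat3 at -0.013 to 0.11 and Sesn1 at -0.092 to 0.11. With age Fas was at -0.21 to 0.094, Gdf15 at -0.040 to 0.37, Perp at -0.072 to 0.29, Zmat3 at -0.046 to 0.079, Sesn1 at -0.10 to 0.095, Mdm4 at -0.32 to 0.081 and Chek2 at -0.20 to 0.055. Fas had 34 to 72 raw counts in a sample, the fewest of the 10 genes.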

Other observations

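The mean of the 10 genes, each as a z-score of log2 CPM centred within its age, was -0.69 to -0.09 in the 4 sham-irradiated samples and 0.19 to 0.54 in the 4 irradiated samples, so that the groups did not overlap. Without Ccng1 and Fas they did, with -0.73 to 0.08 in sham-irradiated and -0.10 to 0.47 in irradiated samples. Both genes were left out after their values were seen. How often the mean of other genes, centred in the same way, separates the groups was not tested.

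The genes of the table whose pattern over the 8 samples was most like this mean, out of 15674 and with the 10 left out, were Ell2, an elongation factor of RNA polymerase II (Pearson's r = 0.99, Spearman's rho = 0.98), Atg12, of the autophagy conjugation system (r = 0.99, rho = 0.98), an unnamed gene, ENSRNOG00000068396 (r = 0.98, rho = 1.00), Sos2, an exchange factor of Ras (r = 0.98, rho = 0.98), and Rab10, a small GTPase of vesicle transport (r = 0.97, rho = 0.98). Cdkn1a ranked 33rd at r = 0.90 (rho = 0.83). The points share libraries, depth and the centring within age, and the highest of so many correlations are high by selection.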
